A study of Homo sapiens with 2 samples.

Results

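Expression of 7 genes for secreted inflammatory signals was followed in single cells of MDA-MB-231 mammospheres adapted to 2 mM metformin or to none. The genes are the chemokine genes CXCL1, CXCL2, CXCL3, IL8 (now named CXCL8) and CCL20, and the interleukin-6 family genes IL6 and LIF. They were picked by name as rows of the deposited table, and 7 of 7 were found among its 19826 genes. The higher level of CXCL1 at 2 mM was already known when the list was drawn up, so all values below are descriptions. MDA-MB-231 is an established human cell line of triple-negative breast cancer with mesenchymal traits. The 2 mM group was kept for 30 days in flat culture in high-glucose medium with 2 mM metformin, an antidiabetic biguanide, and the 0 mM group for as long without it. Cells of both groups were then grown as floating spheres on low-attachment plates for 10 days and separated with trypsin and EDTA. Each group was 1 single-cell RNA library, with no second culture or preparation.

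Chemokines bind receptors on leukocytes and steer their migration. CXCL1, CXCL2, CXCL3 and IL8 act mainly on the receptors CXCR1 and CXCR2 and draw neutrophils. CCL20 acts on CCR6 of dendritic cells and some lymphocytes. IL6 and LIF signal through the shared receptor chain IL6ST, also named gp130, to the transcription factor STAT3. Transcription of most of these genes is known to be driven by NF-kB, with AP-1 and C/EBP factors, and MDA-MB-231 is known as a line with active NF-kB that secretes IL8 and IL6.

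The promoters are shown because 4 of the genes lie together on chromosome 4 and differed in how far they changed. Between IL8 and CXCL2, RefSeq lists the related genes CXCL6, PF4V1, CXCL1, PF4, PPBP, CXCL5 and CXCL3. Of the neighbours that are not among the 7, PF4 had 2 UMIs at 2 mM and 0 UMIs at 0 mM, and CXCL5 had 0 and 4 UMIs. UMIs are random tags, 1 for each transcript molecule caught. The windows run from 250 bases before the start site to 50 bases from it, in RefSeq's build GRCh38.p14, whereas the counts came from build hg19. They are CXCL1 at chr4:73869143-73869442 (plus strand), CXCL2 at chr4:74099146-74099445 (minus strand), CXCL3 at chr4:74038640-74038939 (minus strand), IL8 at chr4:73740319-73740618 (plus strand) and IL6 at chr7:22726950-22727249 (plus strand). Capitals mark matches on either strand to GGNNTTTCC, letters that fit many kappaB sites, the sites of NF-kB.
CXCL1: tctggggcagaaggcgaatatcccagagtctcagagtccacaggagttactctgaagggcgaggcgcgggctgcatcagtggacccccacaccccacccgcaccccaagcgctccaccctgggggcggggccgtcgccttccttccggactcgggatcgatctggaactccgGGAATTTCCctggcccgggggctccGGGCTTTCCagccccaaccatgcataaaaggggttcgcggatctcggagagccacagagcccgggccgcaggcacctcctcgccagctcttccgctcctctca
CXCL2: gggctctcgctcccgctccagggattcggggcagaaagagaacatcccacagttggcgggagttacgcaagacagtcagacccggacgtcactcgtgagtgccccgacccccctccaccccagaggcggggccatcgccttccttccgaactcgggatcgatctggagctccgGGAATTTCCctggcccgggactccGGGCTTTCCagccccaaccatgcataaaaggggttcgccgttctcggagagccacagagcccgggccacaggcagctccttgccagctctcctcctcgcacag
CXCL3: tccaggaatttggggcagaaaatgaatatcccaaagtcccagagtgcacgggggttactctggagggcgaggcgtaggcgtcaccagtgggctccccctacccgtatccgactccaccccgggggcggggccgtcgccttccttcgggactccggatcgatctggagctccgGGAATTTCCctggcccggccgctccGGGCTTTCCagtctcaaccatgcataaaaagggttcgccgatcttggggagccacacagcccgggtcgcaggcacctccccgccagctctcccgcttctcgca
IL8: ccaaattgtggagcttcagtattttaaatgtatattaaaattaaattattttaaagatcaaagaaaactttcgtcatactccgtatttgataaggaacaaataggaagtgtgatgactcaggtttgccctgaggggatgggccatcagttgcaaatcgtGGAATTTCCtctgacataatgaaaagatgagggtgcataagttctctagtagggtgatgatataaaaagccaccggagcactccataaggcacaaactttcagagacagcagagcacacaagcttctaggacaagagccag
IL6: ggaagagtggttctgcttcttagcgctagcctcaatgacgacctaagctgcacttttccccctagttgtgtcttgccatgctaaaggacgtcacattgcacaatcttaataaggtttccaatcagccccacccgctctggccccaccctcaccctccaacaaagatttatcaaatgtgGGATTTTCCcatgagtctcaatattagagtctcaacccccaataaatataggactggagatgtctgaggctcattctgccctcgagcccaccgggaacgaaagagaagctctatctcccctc

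The windows of CXCL1, CXCL2 and CXCL3 each held 2 matches, the first beginning 77 or 78 bases and the second 53 bases before the start site. Over the whole window, aligned end to end with gaps allowed, CXCL1 was identical to CXCL3 at 84.7% of positions and to CXCL2 at 80%. Against IL8 it was identical at 54.7%, below the 57.3% it had with IL6 and with CCL20. IL8 held 1 match, and also the AP-1 letters TGANTCA, which none of the other 5 windows held. IL6 held 1 match. CCL20 held 1 match, on the reverse strand. Thus 6 of the 6 windows matched in RefSeq's table had the kappaB letters, which 6.26% of 27305 promoter windows have. TGANTCA was found in 7.76% of all windows. These are matches of letters only. LIF had no window in the table.

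At 2 mM, 991 cells gave 3264343 UMIs, with a median of 2509 in a cell. At 0 mM, 1000 cells gave 4403045 UMIs, with a median of 3386. No barcode occurred in both libraries. Joining barcodes 1 base apart left 896 of the 1000 deposited at 2 mM and 931 of the 1000 at 0 mM. Some barcodes counted here as cells may therefore be parts of the same cell, which was not tested. Of 9 markers of the line, 8 were well detected in both, among them KRT18 with 468 and 418 CPM and VIM with 1596 and 3271 CPM. CPM is a gene's UMI count scaled to a library total of 1000000. SPARC was close to absent, with 3 and 1 UMIs. Markers of neutrophils and other leukocytes with a row summed to 7.66 and 27.9 CPM at 2 mM, and to 2.27 and 25.4 CPM at 0 mM. Of the leukocyte genes, PTPRC had 1 and 0 UMIs at 2 mM and 0 mM, but CD14 had 52 and 20 and CD68 33 and 76. Of the neutrophil markers with a row, S100A9 had 18 and 2 UMIs and FCGR3B 7 and 8. Fibroblast markers summed to 4.59 and 2.73 CPM. KDR, the 1 endothelial marker of 5 with a row, had 3.68 and 0.909 CPM. All intervals below are 95% intervals that cover counting error only, and with 1 library per dose no difference could be tested.

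CXCL1 was the member that differed most. It had 1868 UMIs or 572 CPM (547 to 599) at 2 mM and 859 UMIs or 195 CPM (182 to 209) at 0 mM, a ratio of 2.93 (2.70 to 3.18). Its ratio ranked 13 from the top among 4105 genes past a minimum of 50 CPM in 1 library or the other and of 50 UMIs over both. CXCL2 had 64.0 CPM (55.6 to 73.3) and 45.0 CPM (38.9 to 51.7), a ratio of 1.42 (1.17 to 1.74). CXCL3 had only 93 and 71 UMIs, or 28.5 CPM (23.0 to 34.9) and 16.1 CPM (12.6 to 20.3), and a ratio of 1.77 (1.28 to 2.44). All 3 CXCL genes were therefore higher at 2 mM than counting error allows, and CXCL1 by more than CXCL2. CXCL1 and CXCL2 have stretches in common near their 3' ends: of 451 words of 50 bases in the last 500 bases of each transcript, 46 were also in the other. Reads from those stretches cannot be assigned to 1 of the 2 genes, and how they were counted is not given in the sources used here.

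IL8 and IL6 were higher by about a similar factor as CXCL2. IL8, the strongest neutrophil attractant of the group, had 651 UMIs or 199 CPM (184 to 215) at 2 mM and 666 UMIs or 151 CPM (140 to 163) at 0 mM. Its ratio was 1.32 (1.18 to 1.47). Without the 10 cells of each library richest in IL8, which held 19.5% of its UMIs at 2 mM and 35.4% at 0 mM, the ratio was 1.64. IL6, a pleiotropic cytokine of the acute phase response, had 130 CPM (118 to 143) and 97.4 CPM (88.4 to 107), a ratio of 1.34 (1.17 to 1.53). With every cell weighted equally the ratio of IL6 was 1.08.

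CCL20 and LIF were close to the limit of detection. CCL20 had 28 and 23 UMIs, or 8.58 CPM (5.70 to 12.4) and 5.22 CPM (3.31 to 7.84), and the interval of its ratio, 1.64 (0.912 to 2.98), included 1. LIF, which keeps stem cells undifferentiated in mouse cultures, had 28 and 44 UMIs, or 8.58 CPM (5.70 to 12.4) and 9.99 CPM (7.26 to 13.4). Its ratio of 0.858 (0.515 to 1.41) was the one of the 7 below 1. For these 2 genes no difference was detectable at this depth.

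**Figure D1:**
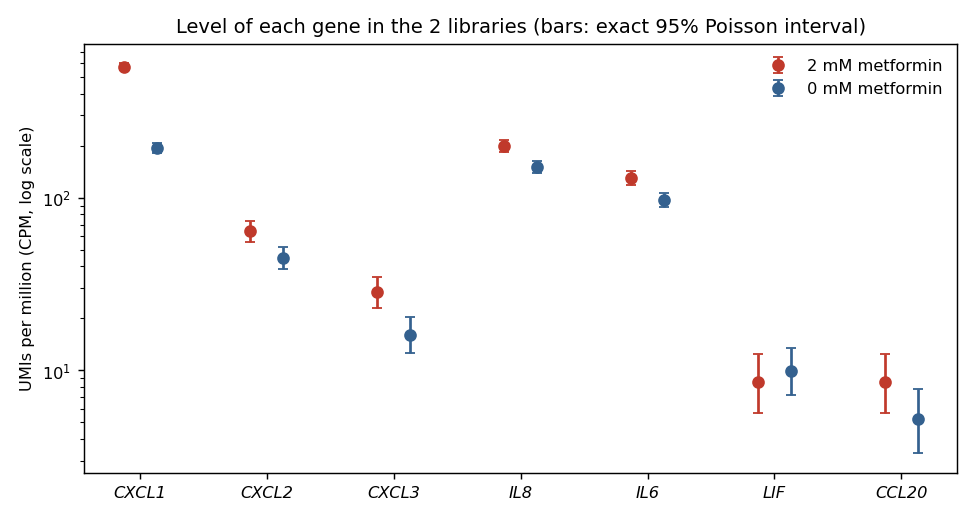
CPM of the 7 genes (vertical log axis) in the 2 mM library (red, left) and the 0 mM library (blue, right), with exact Poisson intervals. The interval of CXCL1 at 2 mM (547 to 599 CPM) lies far above that at 0 mM (182 to 209 CPM), those of CXCL2, CXCL3, IL8 and IL6 lie apart by less, and those of LIF and CCL20 overlap.

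Of the 4 genes that passed the expression minimum (CXCL1, CXCL2, IL8 and IL6), all had ratios above 1 and 1 was at least 1.5-fold higher. Of all 4105 genes, 5.04% passed 1.5-fold in the higher direction and 3.31% in the lower. The median log2 ratio of the 4 was 0.46, against 0.02 for all genes compared. CXCL3, LIF and CCL20 lay below the minimum and are not in this count. The UMIs of the 7 genes summed to 1012 CPM (3302 UMIs) at 2 mM, against 520 CPM (2290 UMIs) without metformin, and CXCL1 gave 56.6% and 37.5% of them.

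A larger share of cells carried CXCL1 at 2 mM, and the cells that carried it held more of it. Shares depend on depth, so a random draw of 1000 UMIs was taken from every cell that had as many. This left 800 cells at 2 mM and 944 at 0 mM, and dropped 191 and 56 shallower ones. CXCL1 was then found in 28.6% (25.5% to 31.9%) of 2 mM cells and 12.4% (10.4% to 14.7%) of 0 mM cells. Cells with CXCL1 held a mean of 2.20 UMIs of it at 2 mM and 1.69 at 0 mM. At least 5 CXCL1 UMIs were found in 22 of the 2 mM cells and 2 of the 0 mM cells. Without thinning, 407 of 991 cells (41.1%) and 233 of 1000 cells (23.3%) had a CXCL1 UMI. All cells are of 1 line, so no cell type that should lack these genes was there to measure background from free RNA.

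IL8 was found in 15.8% (13.3% to 18.5%) of thinned 2 mM cells and 9.64% (7.83% to 11.7%) of thinned 0 mM cells. CXCL2 was found in 5.87% (4.35% to 7.74%) and 2.97% (1.98% to 4.26%), and for both genes the intervals did not overlap. A second random draw gave a difference in share of 3.62 points in place of 6.11 for IL8, 2.09 in place of 2.91 for CXCL2 and 16.6 in place of 16.2 for CXCL1. With cells of at most 10% mitochondrial UMIs, the differences of IL8 and CXCL2 were 3.47 and 1.70 points. The intervals of the 2 mM and 0 mM shares overlapped in both of these settings for both genes. Over 6 alternatives they overlapped in 5 for IL8 and in 5 for CXCL2, and in 0 for CXCL1. Overlap is a coarse check, and it does not show that 2 shares are alike. No interval of the difference itself was computed. IL6, at 9.75% (7.78% to 12.02%) and 7.42% (5.83% to 9.28%), and CXCL3, at 2.5% and 1.38%, had overlapping intervals. LIF was in 12 and 8 thinned cells and CCL20 in 1 and 5, orders that run against their CPM and are not read as a difference. Without thinning, the shares of cells were 25.5% and 21.9% for IL8, 18.9% and 18.1% for IL6, 11.6% and 9.60% for CXCL2, and 5.45% and 4.70% for CXCL3. They were 2.62% and 4.30% for LIF and 1.51% and 1.30% for CCL20.

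**Figure D2:**
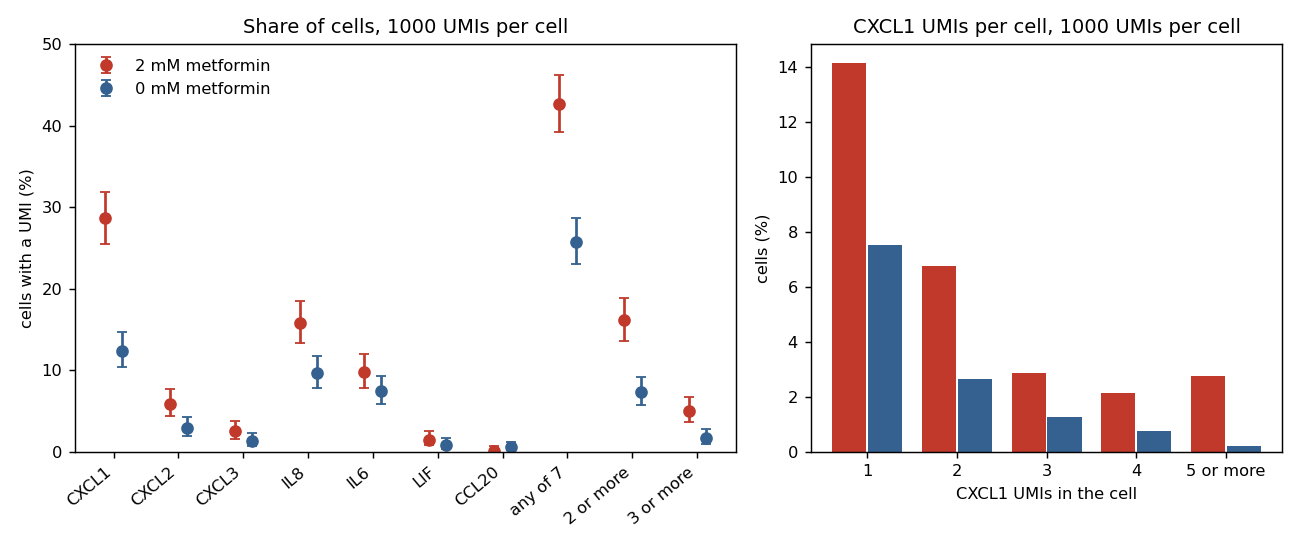
Left, percent of cells with a UMI of each gene, of any of the 7, and of 2 or more or 3 or more of them, at 1000 UMIs per cell (800 cells at 2 mM, red; 944 at 0 mM, blue; bars are exact binomial intervals). Right, percent of cells by their number of CXCL1 UMIs; every class from 1 UMI to 5 or more is larger at 2 mM, with 14.1% against 7.52% of cells at 1 UMI.

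The transcripts were unevenly spread over cells. After thinning, the variance of CXCL1 UMIs over cells was 3.05 times their mean at 2 mM and 2.22 times at 0 mM, where independent draws at 1 common level would give 1. It was 2.10 and 1.90 times for IL8, 1.55 and 2.29 times for IL6, and 1.14 and 0.993 times for LIF. Before thinning, the 10 cells richest in CXCL1 held 20.3% of its UMIs at 2 mM and 29.3% at 0 mM. For CXCL2 they held 28.7% and 33.8%, for CXCL3 51.6% and 45.1%, and for IL6 29.4% and 27.5%. The UMIs of LIF were nearly all single, with at most 2 in a cell.

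Many of the richest cells carried several of the genes, and some carried 1 alone. At 2 mM, the cell with the most CXCL1 had 133 UMIs of it among 19294 UMIs, with 15 of IL8, 4 of IL6 and 2 of CXCL2. A 2 mM cell of 9510 UMIs held the most CXCL3 and the most IL6, 16 and 26 UMIs, with 24 of CXCL1 and 8 of IL8. At 0 mM, a single cell of 7692 UMIs was richest in CXCL2 (20), CXCL3 (9), IL8 (63) and IL6 (28), and second in CXCL1 (50). CCL20 was highest in 1 cell of each library, with 7 UMIs at 2 mM and 6 at 0 mM, and both of these cells also held IL8, IL6 and LIF. By contrast, a 2 mM cell of 11510 UMIs had 14 of IL6, another of 6933 UMIs had 3 of CCL20, and a 0 mM cell of 4211 UMIs had 2 of LIF, each with 0 of the other 6 genes. Whether any of these barcodes held more than 1 cell was not tested.

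The number of the 7 genes found in a cell was higher at 2 mM. At 1000 UMIs per cell, 42.6% (39.2% to 46.1%) of 2 mM cells and 25.7% (23.0% to 28.7%) of 0 mM cells had at least 1 of the 7 genes. At least 2 were found in 16.1% (13.6% to 18.9%) and 7.31% (5.73% to 9.16%), and at least 3 in 5% (3.60% to 6.75%) and 1.69% (0.972% to 2.74%). The difference between doses was 16.9 points for at least 1 of the genes and 16.2 points for CXCL1 alone. How far CXCL1 accounts for the higher numbers was not tested. Without thinning, 1 cell at 2 mM and 3 cells at 0 mM had 6 of the 7, and none had all 7.

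By number of cells, CXCL1 and IL8 were the pair most often together. Among thinned 2 mM cells, 32.8% (26.7% to 39.2%) of the 229 with CXCL1 and 8.93% (6.72% to 11.6%) of the 571 without it had IL8. Among thinned 0 mM cells the shares were 29.1% (21.0% to 38.2%) of 117 and 6.89% (5.26% to 8.84%) of 827. The Pearson correlation of log2(1 + UMIs) of the 2 genes was 0.35 over 800 cells at 2 mM and 0.36 over 944 at 0 mM. Cells of 1 library share its preparation, and such correlations in sparse counts are given without a p-value.

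CXCL2 was also found more often in cells with CXCL1. It was in 11.8% (7.92% to 16.7%) of 2 mM cells with CXCL1 and 3.50% (2.15% to 5.36%) of those without. At 0 mM it was in 17.9% (11.5% to 26.1%) and 0.846% (0.341% to 1.74%). Their correlation was 0.17 at 2 mM and 0.37 at 0 mM, and at 0 mM it was the highest of the 21 pairs. Reads shared between CXCL1 and CXCL2 would also give such a pair, and their part was not tested. IL6 followed CXCL1 less clearly, with 11.4% (7.55% to 16.2%) and 9.11% (6.88% to 11.8%) at 2 mM, and 13.7% (8.02% to 21.3%) and 6.53% (4.94% to 8.43%) at 0 mM. Of the 21 pairs, 15 at 2 mM and 11 at 0 mM had a higher share of the second gene among cells with the first. The 2 intervals lay apart for 5 pairs in each library, 6 pairs at 2 mM and 10 at 0 mM were never found together, and the median correlation of the 21 pairs was 0.04 and 0.07.

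**Figure D3:**
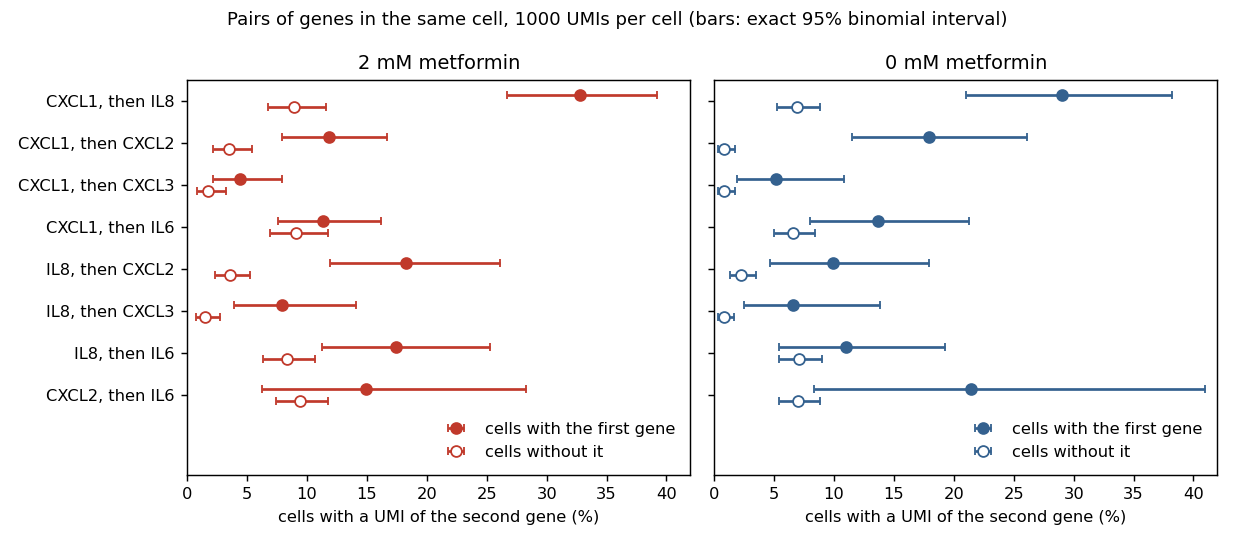
Percent of cells with a UMI of the second gene of a pair (horizontal axis) among cells with the first gene (filled) and without it (open), at 1000 UMIs per cell, in the 2 mM library (left) and the 0 mM library (right), with exact binomial intervals. The intervals of IL8 among cells with and without CXCL1 lie far apart in both libraries, and those of IL6 among the same cells overlap.

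CCL20 was found in too few thinned cells to read its partners, with IL6 in 0 of 1 cell at 2 mM and 2 of 5 cells at 0 mM. Before thinning, IL6 was found in 9 of the 15 cells with CCL20 at 2 mM (60.0%) and in 11 of the 13 at 0 mM (84.6%). It was found in 18.2% and 17.2% of the cells without CCL20. CXCL3 was in 3 of the 15 (20%) and 4 of the 13 (30.8%), against 5.22% and 4.36% of cells without CCL20. CXCL2 was in 5 of the 15 (33.3%) and 5 of the 13 (38.5%), against 11.3% and 9.22%. Cells with CCL20 were deeper, with median depths of 5215 and 5590 UMIs against 2459 and 3370 UMIs in the others, and the part of depth was not tested. At 2 mM, 14 of 26 cells with LIF (53.8%) and 40.7% of the others had CXCL1. At 0 mM, 8 of 43 cells with LIF (18.6%) and 23.5% of the others had it.

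To see where in the population the transcripts lay, cells were split by their UMIs of other gene lists after thinning. The cut was 3 UMIs of the acute phase, NF-kB, interferon or G2/M list and 2 UMIs of the hypoxia list. These are ranges of a score, not cell types. Between 145 and 460 cells per library lay at a cut or 1 UMI below it. Levels are CPM over all UMIs of the cells in a range.

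CXCL1, CXCL2, CXCL3, IL8 and IL6 were all higher in cells rich in acute phase transcripts. Transcripts of this list, such as SAA1, SAA2, C3 and LCN2, encode secreted proteins of innate defence. CXCL1 had 724 CPM in the 534 acute phase-rich cells at 2 mM and 305 CPM in the other 266. At 0 mM it had 333 CPM in 283 rich cells and 137 CPM in the other 661. IL8 had 241 and 124 CPM at 2 mM, and 243 and 113 CPM at 0 mM. IL6 had 146 and 103 CPM at 2 mM, and 129 and 82.7 CPM at 0 mM. CXCL3 had 38.3 and 12.3 CPM at 2 mM, and 27.9 and 11.2 CPM at 0 mM. Compared within these ranges, CXCL1 at 2 mM over 0 mM had ratios of 2.17 (1.95 to 2.42) in rich and 2.22 (1.91 to 2.57) in poor cells, both under the 2.96 of all cells of at least 1000 UMIs. IL8 had ratios of 0.990 (0.859 to 1.14) and 1.10 (0.892 to 1.35) there, against 1.32 in all cells of that depth. Inside either range, IL8 was therefore not detectably higher at 2 mM. The list itself was higher at 2 mM, at 5272 CPM against 2208 CPM, and its part in the difference of IL8 was not tested.

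IL6 and CCL20 lay mostly in cells rich in interferon-induced transcripts, whereas CXCL1 was lower there. IL6 had 258 CPM (228 to 290) in the 260 interferon-rich cells at 2 mM and 63.6 CPM (53.1 to 75.6) in the other 540. At 0 mM it had 157 CPM (140 to 176) in 453 rich cells and 49.2 CPM (40.8 to 58.8) in the other 491. Of the CCL20 UMIs, 23 at 2 mM and 20 at 0 mM came from interferon-rich cells, and 4 and 3 from the others. These UMIs rest on few cells, since before thinning 15 cells at 2 mM and 13 at 0 mM had CCL20. CXCL1 had 405 CPM in interferon-rich and 677 CPM in interferon-poor cells at 2 mM, and 151 and 233 CPM at 0 mM. The ratio of CXCL1 at 2 mM over 0 mM was 2.69 (2.31 to 3.13) in the rich and 2.90 (2.63 to 3.21) in the poor cells.

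Cells rich in transcripts of NF-kB subunits and feedback genes had more of the 5 best detected members. CCL20 also lay mostly there, with 24 UMIs at 2 mM and 22 at 0 mM in NF-kB-rich cells, and 3 and 1 in the others. IL6 had 224 and 59.4 CPM in NF-kB-rich and NF-kB-poor cells at 2 mM, and 157 and 46.4 CPM at 0 mM. CXCL2 had 97.9 and 41.2 CPM at 2 mM, and 73.7 and 21.5 CPM at 0 mM. CXCL3 had 48.9 and 14.3 CPM at 2 mM, and 25.7 and 8.44 CPM at 0 mM. CXCL1 had 623 and 550 CPM at 2 mM, nearly as high in NF-kB-poor cells, against 303 and 108 CPM at 0 mM. The ratio of CXCL1 was 2.06 (1.85 to 2.28) in NF-kB-rich cells and 5.09 (4.43 to 5.87) in NF-kB-poor cells. The difference between these ratios was not tested, with 1 library per dose.

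Hypoxia-rich cells at 2 mM had 638 CPM of CXCL1 and the other cells 561 CPM. At 0 mM the hypoxia-rich cells had less CXCL1 than the others, 103 and 229 CPM. The ratio of CXCL1 was 6.21 (5.06 to 7.67) in hypoxia-rich and 2.45 (2.24 to 2.69) in hypoxia-poor cells, and that of IL8 2.28 (1.77 to 2.94) and 1.15 (1.01 to 1.30). In cells rich in transcripts of the G2 and M phases, CXCL1 was lower than in the others, at 480 and 697 CPM at 2 mM and 152 and 270 CPM at 0 mM. IL6 at 2 mM had 74.8 CPM in G2/M-rich and 196 CPM in G2/M-poor cells, against 81.0 and 122 CPM at 0 mM. Its ratio was 0.923 (0.735 to 1.16) in G2/M-rich and 1.60 (1.33 to 1.93) in G2/M-poor cells.

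**Figure D4:**
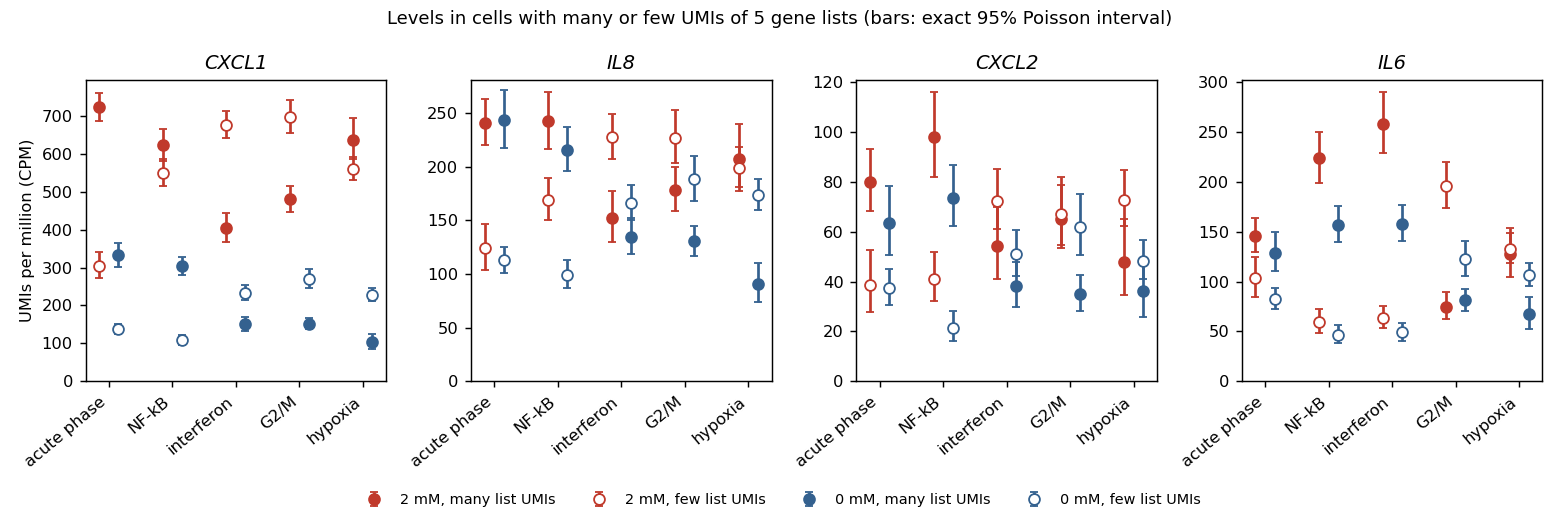
CPM of CXCL1, IL8, CXCL2 and IL6 (vertical axes, different scales) in cells with many (filled) or few (open) UMIs of 5 gene lists (horizontal axis), at 2 mM (red, left of each pair) and 0 mM (blue, right), with exact Poisson intervals. IL6 is 258 CPM in interferon-rich and 63.6 CPM in interferon-poor cells at 2 mM, and CXCL1 in NF-kB-poor cells is 550 CPM at 2 mM, against 108 CPM at 0 mM.

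The genes whose transcripts varied most like the summed 7 over thinned cells were sought among 3040 genes with at least 50 UMIs in each thinned library. The correlations were weak, with a highest mean over the 2 libraries of 0.19 and a 95th percentile of 0.04. NFKBIA, the inhibitor of NF-kB that NF-kB itself induces, was first, at 0.19 in both libraries. PPP1R15A, a phosphatase subunit of the stress response, followed at 0.10 at 2 mM and 0.20 at 0 mM, then the pentraxin gene PTX3 (0.12 and 0.16), NNMT (0.12 and 0.15) and JUN (0.13 and 0.13). SAA1, C3, SAA2, TNFRSF11B and IFNL1 complete the 10, with mean correlations between 0.11 and 0.12. IFNL1, an interferon gene, had 0.03 at 2 mM and 0.19 at 0 mM. Several of these did not share the direction of CXCL1 between doses, since at 2 mM and 0 mM PTX3 had 119 and 252 CPM and NFKBIA 641 and 647 CPM.

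Single members had different companions. Among the 3040 genes, which by their minimum leave out CXCL2 and CXCL3, those most like CXCL1 were IL8 (0.35 at 2 mM and 0.36 at 0 mM), C3 (0.13 and 0.15) and SAA2 (0.14 and 0.11). Outside that set, CXCL1 had correlations of 0.17 and 0.37 with CXCL2 and 0.12 and 0.17 with CXCL3. Within the same set, those most like IL8 were CXCL1, PTX3 (0.16 and 0.15) and CYR61 (0.18 and 0.12), a secreted matrix protein gene. IL8 had correlations of 0.21 and 0.20 with CXCL2, above those with PTX3 and CYR61 but below those with CXCL1. With CXCL3 it had 0.13 and 0.23. IL6 went with IFIT2 (0.33 and 0.23) and IFIT3 (0.29 and 0.26), both interferon-induced, and with CH25H (0.22 and 0.31), the cholesterol 25-hydroxylase gene.

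Among genes of the same pathways, the receptor chains IL6ST and LIFR had ratios above 1, while NF-kB and AP-1 genes lay on both sides of 1. IL6ST, the shared signalling chain, had 230 and 176 CPM, a ratio of 1.31 (1.18 to 1.45), and LIFR, the LIF-binding chain, 58.8 and 26.1 CPM, a ratio of 2.25 (1.78 to 2.86). IL6R, the IL6-binding chain, had 3 and 0 UMIs, at or below the floor of 3 counts in both libraries. DARC, a chemokine scavenger receptor, had 1 and 0 UMIs. Of 8 receptor names sought, only IL6ST, LIFR, IL6R and DARC had a row in the deposited table. CXCR2, sought as a neutrophil marker, had no row, and no values are given here for CXCR1 and CCR6.

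Of 8 compared NF-kB subunits and feedback genes, 2 had ratios above 1 and none passed 1.5-fold either way, with a median log2 ratio of -0.11. BIRC3, an apoptosis inhibitor, had a ratio of 1.19 (1.11 to 1.27) and RELA, the main activating subunit, 1.03. IER3, an early response gene, had 0.687, SOD2, the mitochondrial superoxide dismutase gene, 0.810, and the atypical inhibitor gene NFKBIZ 0.860. Of 7 compared AP-1 and C/EBP factor genes, 2 were at least 1.5-fold lower, FOS at 0.390 (0.318 to 0.476) and FOSL1 at 0.566 (0.495 to 0.645). CEBPB, a factor known for IL6 and IL8 transcription, had a ratio of 1.24 (1.13 to 1.37) and FOSL2 1.48 (1.18 to 1.85). Below the expression minimum, and picked after their values were seen, the NF-kB cofactor gene BCL3 had 1.99 (1.55 to 2.57) and JUND of AP-1 1.96 (1.43 to 2.71). Other genes below it went the other way, with EGR1 of the AP-1 and C/EBP list at 0.333 (0.232 to 0.47) and FOSB at 0.514 (0.270 to 0.933). Of 3 compared genes of upstream receptors and adaptors, OSMR (1.67) and IRAK1 (1.79), a kinase of interleukin-1 and Toll-like receptor signalling, were higher and TNFRSF1A had 0.840.

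Genes that act on AU-rich mRNAs, the class to which IL6, IL8 and CXCL1 mRNAs belong, showed no change past 1.5-fold in 9 compared. Their ratios ran from 0.824 for HNRNPD to 1.43 for ZC3H12A, an endonuclease known to cleave IL6 mRNA, with a median log2 ratio of 0.16. The 5 compared genes of STAT3 signalling also lay within 1.5-fold, from PIM3 at 0.897 to JAK1 at 1.11. Some genes of these 2 lists below the minimum, picked after their values were seen, lay outside it. KHSRP of the AU-rich list had 123 and 91 UMIs, a ratio of 1.82 (1.38 to 2.42). SOCS3 of the STAT3 list had 23 and 53 UMIs, a ratio of 0.585 (0.342 to 0.972). Of 3 other chemokine genes compared, all known to be induced by interferons, CCL5 had 1.21, CXCL11 0.929 and CXCL10 0.822. Below the minimum, as CXCL3 is, and picked after their values were seen, the monocyte attractant CCL2 had 143 and 40 UMIs, a ratio of 4.82 (3.38 to 7.03), and CX3CL1 78 and 31 UMIs, a ratio of 3.39 (2.21 to 5.33). CCL3, also below it, went the other way with 2 and 13 UMIs, a ratio of 0.21 (0.023 to 0.917). Of 4 other cytokine genes compared, TNFSF10 (1.78), IL32 (1.58) and CSF1 (1.501) were higher, and EBI3 (0.300) was lower. Acute phase genes were higher in 5 of 6 compared, with the defensin gene DEFB1 at 26.3, LCN2 at 8.17 and SAA2 at 3.23, and PTX3 at 0.472 as the exception.

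**Figure D5:**
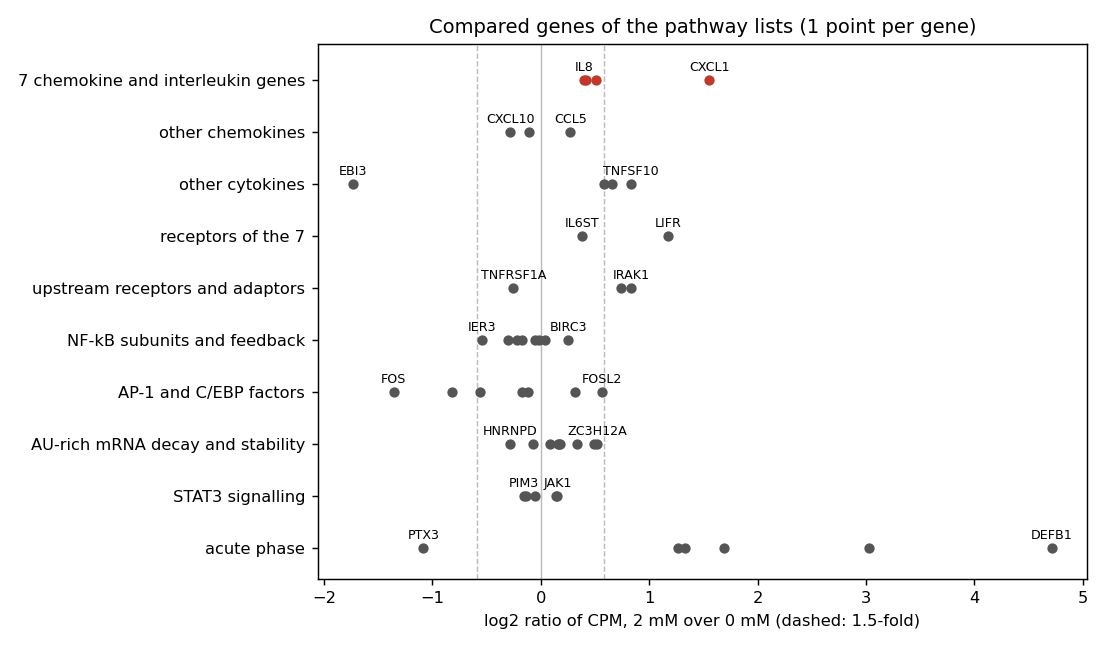
Log2 ratio of CPM at 2 mM over 0 mM (horizontal axis) for each compared gene of the listed pathways, 1 point per gene, with the highest and lowest gene of each list named and dashed lines at 1.5-fold. CXCL1 stands at 1.55 above the other 3 compared chemokine and interleukin genes, and no NF-kB subunit or feedback gene passes a dashed line.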

How the data were processed

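The authors deposited whole UMI counts per gene and barcode, 1000 barcodes per dose. Tools named in the submitters' processing notes are bcl2fastq and STAR 2.5.0a, with build hg19. PCR was done on beads, followed by Nextera XT, per the labels' protocols. How barcodes were chosen, UMIs collapsed and strand treated is not given in the sources used here. Cells needed 500 UMIs and 300 detected genes, and no doublet caller was run. Barcodes that hold more than 1 cell of the line can raise how often genes are found together, and their part was not tested. Counts were summed per library and scaled to CPM. Intervals are exact Poisson for sums, Clopper-Pearson for shares and conditional Clopper-Pearson for ratios. They treat UMIs as separate draws and leave out spread between cells and cultures, so they are too narrow. Correlations used cells thinned to 1000 UMIs. The computations were checked on simulated data. Promoter windows came from RefSeq (GRCh38.p14) and transcript ends from GENCODE, aligned with Biopython 1.88. Python 3.11.15, scipy 1.17.1 and, for scaling factors only, edgeR 4.0.16 were used. The 7 genes and all lists were chosen with earlier results of these data known, and the cuts that split cells by gene lists were set after the files were opened, with no other cut tried. The split by NF-kB genes was added to the planned ones. Besides the 7, up to 3 compared genes with the highest and lowest ratio of a list, the receptors and the genes most alike over cells were eligible to be named.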

Additional observations from a re-analysis of the deposited data

How the results depend on the processing

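Over 8 alternatives each, ratios of CXCL1 ran from 2.76 to 3.31, of CXCL2 from 1.34 to 1.53, of CXCL3 from 1.55 to 1.81, of IL8 from 1.24 to 1.64 and of IL6 from 1.08 to 1.38, so all stayed above 1. Those of LIF (0.653 to 1.07) crossed 1, and those of CCL20 ran from 1.08 to 2.25. Without the 10 richest cells of each library CXCL1 had 3.31 and IL8 1.64, and with cells weighted equally IL8 had 1.48 and IL6 1.08. Under TMM scaling 140 genes passed 1.5-fold upward and 223 downward. With no CPM minimum and 20 UMIs, 3 of the 7 genes were at least 1.5-fold higher (CXCL1, CXCL3 and CCL20), the interval of CCL20 including 1. Of all genes, 1547 were higher and 860 lower by as much. The number of genes past this minimum is not given here, so the 3 cannot be set beside a share of all genes.

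Differences in shares of cells depended on depth. Thinned to 2000 UMIs they were 22.4 points for CXCL1, 5.86 for CXCL2 and 0.845 for CCL20. Thinned to 500 UMIs they were 1.27 points for IL8 and 2.45 points for cells with 2 or more of the genes. At that depth the intervals of the 2 mM and 0 mM shares overlapped for both. Without thinning LIF had -1.68 points. With barcodes 1 base apart joined, cells with 2 or more of the genes differed by 6.60 points in place of 8.82. The differences were then 15.4 points for CXCL1, 5.84 for IL8 and 0.969 for IL6. Of the 10 genes most like the summed 7, 6 were among the 10 of the 2 mM library alone, 6 among those of the 0 mM library alone and 7 without thinning. No paired analysis was possible because each dose had 1 library. Low UMI counts limit CXCL3, LIF and CCL20 most. The intervals of the 7 ratios leave out any difference between cultures.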

Other observations

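The level of the 7 genes was also read by depth and by mitochondrial share of the cells, in 4 depth classes and 3 mitochondrial classes of near equal size. CXCL1 was higher at 2 mM in each class of depth, from shallow to deep at 444, 660, 649 and 529 CPM, against 194, 207, 225 and 178 CPM at 0 mM. IL6 at 2 mM had between 118 and 140 CPM in all 4 classes, against 154 and 149 CPM in the 2 shallower and 78.4 and 85.6 CPM in the 2 deeper classes at 0 mM. The class of cells with the highest mitochondrial share had the least IL6, at 81.8 CPM at 2 mM and 69.1 CPM at 0 mM, whereas the lowest class had 157 and 112 CPM. For CXCL1 the lowest class had 472 and 148 CPM and the highest class 622 and 264 CPM.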
